A study of Mus musculus with 12 samples.

Results

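The named ribosomal protein pseudogenes were the genes whose symbol begins with Rpl or Rps and contains -ps, taken where at least 1 read was counted in any sample. Of the 25444 genes with a count, 230 met this rule, 86 named after proteins of the small ribosomal subunit (Rps) and 144 after proteins of the large subunit (Rpl). A further 50 genes with such a symbol had no count. The rule used names and detection, and no comparison of the genotypes, while Rps13-ps1 was set apart with earlier results of these data known. The annotation gave 218 of the 230 as processed pseudogenes, 6 as transcribed processed pseudogenes and 6 as protein-coding genes (Rpl10-ps3, Rpl9-ps6, Rpl9-ps1, Rps12-ps3, Rpl36a-ps1 and Rpl36-ps4).

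A ribosome joins ribosomal RNA with a set of ribosomal proteins, each of which is encoded in mammals by a gene with introns that is transcribed at a high level in nearly all cells. A processed pseudogene arises when an mRNA is copied back into DNA and inserted elsewhere in the genome, so that it lacks introns and often ends in a run of A. Ribosomal protein mRNAs have given rise to many such copies, and short reads from a copy and from its parent gene can match each other over their whole length.

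RNA-seq counts were analysed for HSCs (Lin-, Sca1+, ckit+, CD135-, CD150+) sorted from the bone marrow of mice 10 to 14 weeks old, 6 of them WT and 6 Pon2-/-, with 8 wells of 10 cells per mouse. According to the authors, this gate mixes long-term HSCs with multipotent progenitors of the MPP2 type, together called HSCs here. The strain background was labelled C57BL/6J for all mice. Pon2-/- mice carry a β-geo gene trap flanked by loxP sites in intron 2 of Pon2, which encodes paraoxonase 2 and lies on chromosome 6, whereas the WT mice carry no trap. The labels name Charles River as the source of the WT mice and do not state that the mice were littermates, so that the Pon2 allele and other differences between the 2 groups of mice cannot be told apart. Smart-seq2, which amplifies full-length cDNA and keeps no strand, was used for all libraries.

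Per sample, 12967791 to 24228280 counts fell on genes in WT HSCs and 14671353 to 23122382 in Pon2-/- HSCs, and 3 counts, the limit that a count of 0 allows, corresponded to 0.121 to 0.235 counts per 1000000 counts (CPM). This limit covers counting error only. Pon2 had a mean of 113 ± 49.3 CPM in WT samples, against 25.7 ± 12.2 CPM in Pon2-/- samples (SD, n = 6 each), and the groups did not overlap (edgeR log2 fold change -2.13, adjusted p = 0.586). Pon2-/- replicate 5 was at 1.16 CPM, beside 28.4 to 33.1 CPM in the other Pon2-/- samples. All 10 HSC markers were counted in all 12 samples, with summed levels of 2473 to 3261 CPM (WT) and 2327 to 3126 CPM (Pon2-/-). Of 10 T lineage markers, 4 had no count (Cd3e, Cd8a, Trac and Cd5) and Lck was counted in 11 samples, with summed levels of 0.0424 to 39.7 CPM (WT) and 24.1 to 57.7 CPM (Pon2-/-). Lck alone had medians of 23.5 CPM (WT) and 35.5 CPM (Pon2-/-), beside 32.5 and 35.5 CPM for the T lineage sum. Flt3, which encodes CD135, the protein the sort selected against, was counted in all 12 samples, with medians of 31.4 CPM (WT) and 50.6 CPM (Pon2-/-). Summed B lineage markers ranged from 25.5 to 471 CPM (WT) and from 69.3 to 10437 CPM (Pon2-/-), and summed myeloid markers from 878 to 10337 CPM and from 830 to 16286 CPM. Summed erythroid markers ranged from 22.4 to 93.9 CPM (WT) and from 28.4 to 112 CPM (Pon2-/-). For megakaryocyte markers the sums were 193 to 296 CPM and 172 to 339 CPM. Their part in the results was not tested. In these bulk samples, fewer cells of a type and less RNA per cell cannot be told apart.

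Rps13-ps1 is a copy of Rps13, which encodes a protein of the small subunit. Rps13 lies on chromosome 7 (GRCm38, chr7:116331505-116334195, minus strand), and 4 of its named pseudogenes had counts. Rps13-ps1 (chr8:87047689-87048226, plus strand, 538 bases) and Rps13-ps2 (chr7:88530446-88530898, minus strand, 453 bases) overlapped no other gene of the annotation. Rps13-ps4 (chr8:119602170-119602625, minus strand) lies in an intron of Taf1c, and Rps13-ps5 lies at chr11:61205720-61206175, minus strand. Rps13-ps6, Rps13-ps7 and Rps13-ps8 had no count in any sample.

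The stretch is shown because it holds both differences between Rps13-ps1 and Rps13. It covers bases 391 to 453 of the coding sequence, counted from 1 at the start codon, spans a junction of exons in Rps13, and lies at chr8:87048110-87048172 in Rps13-ps1. Capitals in the Rps13 line mark the 3 positions at which any of the pseudogenes differs from it, and capitals in a pseudogene line mark its own differences. The sequences are of the annotated transcripts of GENCODE release M21.
Rps13: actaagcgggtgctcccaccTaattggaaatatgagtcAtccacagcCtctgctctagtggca
Rps13-ps1: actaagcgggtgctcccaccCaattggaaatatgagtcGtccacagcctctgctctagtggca
Rps13-ps2: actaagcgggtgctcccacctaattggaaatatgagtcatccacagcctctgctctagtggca
Rps13-ps4: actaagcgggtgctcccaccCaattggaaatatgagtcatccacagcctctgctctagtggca
Rps13-ps5: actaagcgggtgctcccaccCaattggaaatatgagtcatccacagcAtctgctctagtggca

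Rps13-ps1 aligned to bases 63 to 584 of the Rps13 mRNA, which is 589 bases long, and thus held the whole coding sequence with parts of both untranslated regions. Over these 522 bases it differed from Rps13 at 2 positions, T411C and A429G, where the base of Rps13 comes first and the position is that in the coding sequence. Both fall on the third base of a codon, the reading frame keeps its first stop codon at codon 152 as in Rps13, and the transcript ends in a run of 13 A. T411C was shared by Rps13-ps1, Rps13-ps4 and Rps13-ps5, and A429G was found in Rps13-ps1 alone among the 4 counted copies. Rps13-ps4 also carried C106A and G121C, and Rps13-ps5 had 12 substitutions and a first stop codon at codon 127. Rps13-ps2 was identical to Rps13 over its 453 bases and stops short of the stop codon.

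The identity limits where a read can be placed. Of the 489 windows of 50 bases in Rps13-ps1, 59 occurred in no other annotated gene. Of the 404 windows in Rps13-ps2, 0 did. The counts of Rps13-ps2 are therefore uncertain as a measure of that locus, and those of Rps13-ps1 can include or miss reads of Rps13 outside the stretch with the 2 differences.

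**Figure D1:**
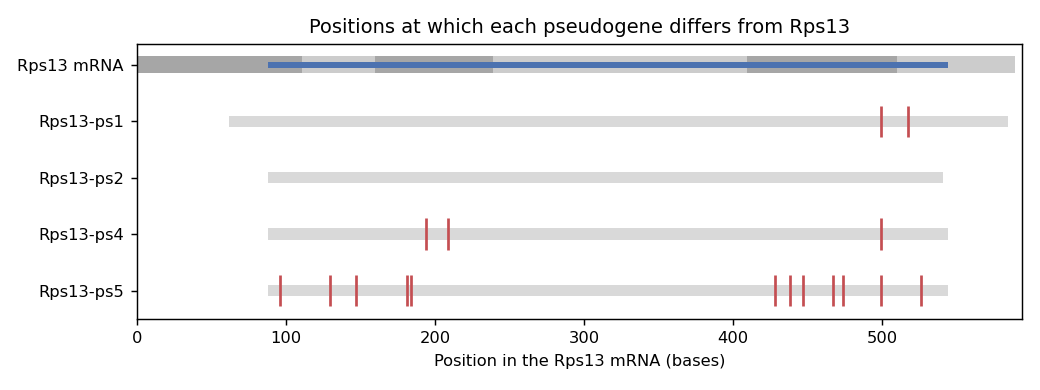
Positions of differences (red lines) along the Rps13 mRNA, in bases from its 5′ end, for the 4 counted Rps13 pseudogenes. Grey shades mark the exons of Rps13, the blue bar its coding sequence and the light bars the part to which each pseudogene aligned; Rps13-ps1 has its 2 differences near the end of the coding sequence, Rps13-ps2 has none and Rps13-ps5 has 12.

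Rps13-ps1 was higher in all 6 Pon2-/- than in all 6 WT samples. Its counts in WT HSCs were 20, 11, 12, 10, 14 and 9 in replicates 1 to 6, and those in Pon2-/- HSCs were 2226, 2363, 2250, 2020, 2884 and 2375. In CPM, the level was 0.711 ± 0.205 in WT and 130 ± 14.7 in Pon2-/- HSCs (mean ± SD, n = 6 each). The groups were far apart, with the highest WT sample at 1.02 CPM and the lowest Pon2-/- sample at 102 CPM. The log2 fold change was 7.51 with a standard error of 0.31 (adjusted p = 1.79e-08, edgeR quasi-likelihood test with Benjamini-Hochberg adjustment over all 11848 genes tested). With the samples assigned to the genotypes in every possible way, an exact permutation test of log2 CPM gave the smallest p that it allows (two-sided, p = 0.00216). Since Rps13-ps1 was singled out with earlier results known, the permutation p of its level and of its share describe its separation. They are no independent test.

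The counts of a pseudogene as a percentage of the counts of its parent gene, here called its share, do not depend on library size. They are ratios of counts and are not scaled to length. The share of Rps13-ps1 was 0.192%, 0.160%, 0.149%, 0.188%, 0.209% and 0.129% in the WT samples. In the Pon2-/- samples it was 40.0%, 35.1%, 42.6%, 45.7%, 43.8% and 46.0%. The mean share rose from 0.171% ± 0.0301 to 42.2% ± 4.12 (SD, n = 6 each), a difference of 7.90 on the log2 scale (two-sided exact permutation test, p = 0.00216). By mean share, Rps13-ps1 ranked 53 of the 230 pseudogenes in WT and 1 in Pon2-/- HSCs. By mean CPM it ranked 54 and 1.

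Rps13 itself was counted less in Pon2-/- HSCs. Its level was 443, 363, 325, 417, 487 and 429 CPM in WT replicates 1 to 6, and 332, 290, 300, 306, 304 and 310 CPM in those of Pon2-/- mice. The groups overlapped, since WT replicate 3 lay below Pon2-/- replicate 1. The difference was -0.41 on the log2 CPM scale (two-sided exact permutation test, p = 0.00433), and edgeR did not call Rps13 (log2 fold change -0.42, adjusted p = 0.716). DESeq2 gave nearly the same log2 fold change, -0.41, with an adjusted p of 0.00296, and did not call Rps13 because the change was below the fold threshold. Rps13 was looked at as the parent of Rps13-ps1, and its counts are the denominator of that share. The permutation p of Rps13 is therefore a description and no independent test. The sum of Rps13 with its 4 counted pseudogenes had a mean of 420 ± 59.8 CPM in WT samples and of 442 ± 25.9 CPM in Pon2-/- samples (SD). This sum differed by 0.08 on the log2 scale, less than the spread between samples. Since the sum was formed around Rps13-ps1, it is a description, and it does not show that the total was unchanged. The 4 pseudogenes held 2.31% ± 0.412 of the counts of the sum in WT and 30.3% ± 2.17 in Pon2-/- HSCs. Which of the 5 loci the reads came from was not tested.

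Rps13-ps2 went the other way. Its counts were 141, 100, 99, 87, 107 and 97 in the WT samples and 15, 34, 23, 47, 48 and 30 in the Pon2-/- samples. Its mean level of 5.96 ± 1.29 CPM in WT stood against 1.83 ± 0.833 CPM in Pon2-/- samples, and the groups did not overlap (log2 CPM difference -1.73). Its share of the Rps13 counts lay between 1.23% and 1.64% in WT and between 0.270% and 1.06% in Pon2-/- HSCs, likewise without overlap (log2 difference -1.37). Since Rps13-ps2 was picked for the lack of overlap in CPM, these values are a description, and no permutation test is given for it. edgeR did not call Rps13-ps2 (log2 fold change -1.70, standard error 0.61, adjusted p = 1.00), while DESeq2 did (log2 fold change -1.70, adjusted p = 0.000292).

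Rps13-ps4 and Rps13-ps5, which were chosen after their values were seen, overlapped between the genotypes. Their values are likewise a description, and no permutation test is given for them. The share of Rps13-ps4 had a median of 0.587% in WT and 0.415% in Pon2-/- HSCs, with 1 sample of each genotype at 0 (log2 difference -0.25). Rps13-ps5, which carries T411C without A429G, had a share of 0.0145% to 0.307% in WT and 0.252% to 0.776% in Pon2-/- HSCs (log2 difference 1.53). In CPM, which does not divide by the lower Rps13 counts of Pon2-/- HSCs, the difference of Rps13-ps5 was 0.91 on the log2 scale. Its levels were 0.0528 to 1.36 CPM in WT and 0.781 to 2.33 CPM in Pon2-/- HSCs. The WT samples with the lowest shares of Rps13-ps5 were replicates 2 and 4, at 0.0145% and 0.0376%.

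**Figure D2:**
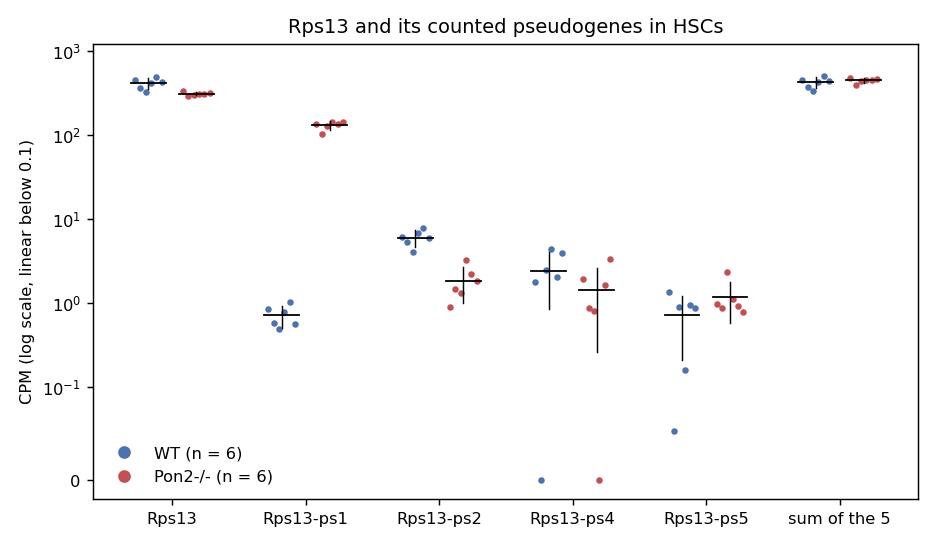
Level in CPM (log axis, linear below 0.1) of Rps13, its 4 counted pseudogenes and their sum in each of 6 WT (blue) and 6 Pon2-/- (red) samples, with horizontal lines at the mean and vertical lines for the SD. Rps13-ps1 lies at 0.484 to 1.02 CPM in WT and 102 to 143 CPM in Pon2-/- samples, while the sums of the 5 genes overlap.

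For the sum of the other 229 pseudogenes, the genotypes differed by less than the spread between samples. Their summed counts were 0.652% ± 0.0729 of the counts of their parents in WT and 0.656% ± 0.0546 in Pon2-/- HSCs (SD, n = 6 each). Per sample, the values ran from 0.596% to 0.785% in WT and from 0.600% to 0.744% in Pon2-/- HSCs. Relative to all counts of a library, they held 0.0228% ± 0.00358 and 0.0221% ± 0.00182. Rps13-ps1 alone made up 0.310% ± 0.0751 of all counts on the 230 pseudogenes in WT and 36.6% ± 1.89 in Pon2-/- HSCs.

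Of the 230 pseudogenes, 54 passed the filter on low counts and 176 did not. edgeR called 1 of the 54, Rps13-ps1, (FDR threshold 0.05, absolute log2 fold change over 1), where 0.203% of all 11848 genes tested were called and 0.127% were called as higher in Pon2-/- HSCs. Rps13-ps1 and Rps13-ps2 had an unadjusted p below 0.05, 3.70% of the 54, beside 3.13% of all genes tested. The 54 had a median log2 fold change of 0.02, beside -0.01 over all genes tested, with 30 above and 24 below 0. With DESeq2, 3 of the 170 pseudogenes with an adjusted p were called (1.76%), beside 1.77% of all 17220 such genes. These were Rps13-ps1, Rps13-ps2 and Rps27a-ps1, a copy of the gene for a ubiquitin-ribosomal fusion protein. WT replicate 4 held 136 of the 184 counts of Rps27a-ps1 (73.9%), and the shares of that pseudogene overlapped between the genotypes.

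The same counts were also compared without a model, by whether the values of the genotypes overlapped. Among the 169 pseudogenes with at least 10 counts, the CPM did not overlap for 2 (1.18%), Rps13-ps1 and Rps13-ps2. Over the 19941 genes with as many counts, this held for 0.471%. The shares did not overlap for the same 2 (1.18%), beside 0.971% of 103 other named pseudogenes, in which Mrpl48-ps was the 1 gene without overlap. Mrpl48-ps, chosen after its values were seen, had a mean share of 0.313% in WT and 6.54% in Pon2-/- HSCs.

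**Figure D3:**
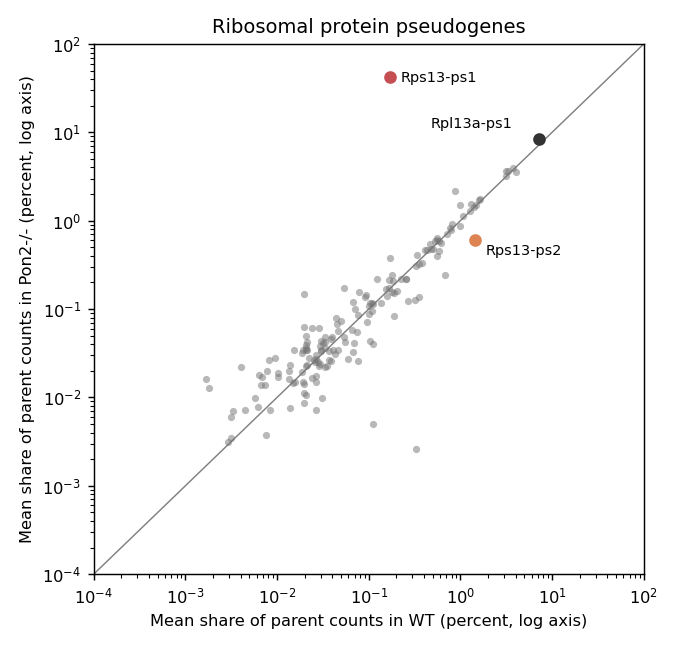
Mean share of parent counts in WT (x axis) and Pon2-/- HSCs (y axis), both in percent on log axes, for the 167 pseudogenes with at least 10 counts and a count in both genotypes. The diagonal marks equal shares; Rps13-ps1 lies at 0.171% and 42.2%, Rps13-ps2 below the diagonal at 1.44% and 0.598%, and Rpl13a-ps1 has the highest WT share, 7.21%.

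When counts were summed over the pseudogenes of each parent, 57 families resulted, with up to 17 members (Rpl31). The Rps13 family was the 1 family whose shares did not overlap between the genotypes, at 2.37% ± 0.430 in WT and 43.7% ± 4.37 in Pon2-/- HSCs. This family includes Rps13-ps1, whose own share was 35.1% to 46.0% in the Pon2-/- samples. Its lack of overlap thus restates that of Rps13-ps1 and is no separate result about the family. Over the 43 other families with at least 100 counts, the ratio of the Pon2-/- to the WT mean share ran from 0.216 (Rps27a, the family of Rps27a-ps1) to 1.52 (Rpl39). The Rpl31 family, as the one with the most members, had a share of 4.18% ± 0.622 in WT and 4.01% ± 0.551 in Pon2-/- HSCs.

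The small-subunit pseudogenes with the highest levels overlapped between the genotypes, apart from Rps13-ps1. Rps16-ps2, a copy of Rps16 that lies in an intron of Adgrd1 and is identical to its parent over 441 bases, had a median share of 3.76% in WT (3.45% to 4.24%) and 3.92% in Pon2-/- HSCs (3.68% to 4.14%). Rps10-ps2 had 3.19% (2.46% to 3.53%) and 3.62% (3.08% to 4.21%). Rps24-ps3 had 1.61% (1.47% to 1.88%) and 1.75% (1.53% to 1.99%). In Rps24-ps3, 36.5% of the windows of 50 bases occurred in no other gene, beside 23.3% in Rps10-ps2 and 0% in Rps16-ps2. That part was 6.17% in Rps19-ps6 and 3.71% in Rps2-ps10. Counts of copies with few such windows are uncertain as a measure of the locus. Rps19-ps6, in an intron of Tecpr2, had a median share of 0.588% (0.495% to 0.661%) and 0.574% (0.527% to 0.712%). Rps2-ps10, in an intron of Pde6a, had 0.700% (0.501% to 1.44%) and 0.792% (0.626% to 0.940%). Its highest share belonged to WT replicate 4, in which the parent Rps2 was at 632 CPM, beside 983 to 1134 CPM in the other WT samples.

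Large-subunit pseudogenes showed the same overlap. Rpl10a-ps1, identical to Rpl10a over 654 bases, had a median share of 3.99% in WT (3.22% to 4.88%) and 3.49% in Pon2-/- HSCs (3.04% to 4.22%). Rpl31-ps8, identical to Rpl31 over 378 bases, had 3.12% (2.69% to 3.73%) and 2.92% (2.82% to 3.94%). Rpl10-ps3, annotated as protein coding, had 1.57% (1.40% to 1.86%) and 1.68% (1.57% to 1.92%). All 3 thus had ranges that covered most of each other. Rpl3-ps1, on the X chromosome, had 1.06% (0.972% to 1.19%) and 1.18% (1.01% to 1.20%). The windows of 50 bases found in no other gene were 0% in Rpl10a-ps1 and Rpl31-ps8, 3.89% in Rpl10-ps3 and 4.31% in Rpl3-ps1. The counts of these copies are likewise uncertain as a measure of the locus. In none of these 9 pseudogenes of both subunits did the exact permutation test of the share give a p below 0.0584, and their log2 fold changes in edgeR lay between -0.11 and 0.17 with standard errors of 0.44 to 0.62.

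**Figure D4:**
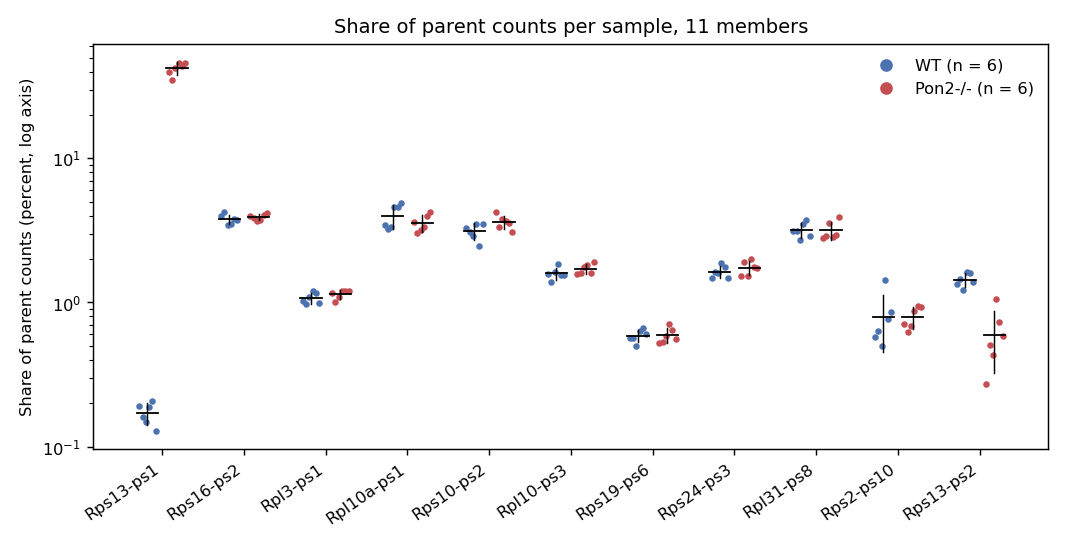
Share of parent counts in percent (log axis) in each of 6 WT (blue) and 6 Pon2-/- (red) samples for 11 pseudogenes picked by level or by lack of overlap in CPM, with horizontal lines at the mean and vertical lines for the SD. Rps13-ps1 is at 0.129% to 0.209% in WT and 35.1% to 46.0% in Pon2-/- samples, Rps13-ps2 is lower in Pon2-/- samples and the other 9 overlap.

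Further pseudogenes with a mean share above 1%, chosen after their values were seen, also overlapped. Rpl23a-ps3 had a share of 3.27% ± 1.45 in WT and 3.61% ± 0.655 in Pon2-/- HSCs (SD, n = 6 each). Rps12-ps9 was at 1.32% ± 0.287 and 1.56% ± 0.372, and Rps10-ps1 at 1.42% ± 0.166 and 1.43% ± 0.112. Rpl38-ps2, at 213 bases among the shorter copies and identical to its parent, was at 1.49% ± 0.380 and 1.52% ± 0.169. In each of these, the means of the genotypes lay within 1 SD of each other. Rpl39-ps, the shortest of the 230 at 151 bases, was at 0.979% ± 0.242 and 1.49% ± 0.445. Rpl23a-ps2 had the widest scatter of them, at 0.881% ± 1.37 and 2.17% ± 4.21, with 62 of its 122 counts in Pon2-/- replicate 3.

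The parents of these pseudogenes, which encode the ribosomal proteins themselves, were not called. All 57 parents passed the filter on low counts, 0 were called by edgeR or DESeq2, and 2 had an unadjusted p below 0.05 in edgeR, Rps13 and Rpl15. Their median log2 fold change was -0.03. Of 88 cytoplasmic ribosomal protein genes, 86 were tested and 0 were called by either tool, also with 2 at an unadjusted p below 0.05. Of 28 ribosome biogenesis genes, which serve the assembly of ribosomes, 28 were tested, with 0 called by either tool and 0 at an unadjusted p below 0.05 in edgeR. Over all genes, edgeR called 0.203% and DESeq2 1.77%, and 3.13% had an unadjusted p below 0.05 in edgeR. At such shares, few calls or none would fall on lists of this size, so that these counts do not set the lists apart. The 57 parents took 3.49% ± 0.204 of all counts in WT and 3.36% ± 0.0625 in Pon2-/- HSCs.

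Counts on the pseudogenes were unevenly spread. A total of 63096 counts fell on the 230, of which Rps13-ps1 held 22.5%, and 10 of the others held 48.3% of the remaining 48902. A count was found in all 12 samples for 91 pseudogenes and in 1 sample for 22. With 1 to 9 counts over all samples, 61 were at the edge of detection, and 14 had 1000 counts or more. A mean share above 1% was found for 14 pseudogenes in WT and 16 in Pon2-/- HSCs, and above 10% for 0 and 1. The highest share apart from Rps13-ps1 was that of Rpl13a-ps1, at 3.87% to 15.2% in WT and 3.55% to 12.9% in Pon2-/- HSCs.

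Among the 90 pseudogenes other than Rps13-ps1 with a count in all 12 samples, the ratio of the Pon2-/- to the WT mean share ran from 0.415 (Rps13-ps2) to 3.20 (Rpl10-ps5), with a median of 1.05, and 74 lay within 1.5 times of equal shares. The mean of Rpl10-ps5 in Pon2-/- HSCs was raised by 1 sample, with a highest share of 0.228% and a median of 0.0269%. The ratio for Rps13-ps1 was 247.

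In several pseudogenes, 1 library held more than 50% of the counts. This applied to 13 of the 169 with at least 10 counts (7.69%), beside 26.4% of all genes with as many counts, and the library was a WT sample for 8 and a Pon2-/- sample for 5. Rps12-ps1 had 101 of its 144 counts in WT replicate 1, and Rpl31-ps5 had all of its 35 counts there. Rpl13-ps5 had 62 of its 63 counts in Pon2-/- replicate 4, and Rps2-ps9 had 62 of 84 in Pon2-/- replicate 5. These were chosen after their values were seen. Of the counts of Rps13-ps1, by comparison, no library of the 12 held more than 20.3%.

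Pseudogenes closer in sequence to their parent held larger shares. Of the 230, 228 aligned to their parent over at least 50% of their length, with 75.0% to 100% identity (median 96.8%), and 14 were identical. The median of the mean shares was 0.00338% for the 30 pseudogenes below 90% identity, 0.00859% for the 52 from 90% to below 95%, 0.0394% for the 90 from 95% to below 99%, and 0.170% for the 55 at 99% and above, Rps13-ps1 left out. Across these 227 pseudogenes, Spearman's rho between identity and share was 0.58, and between share and the part of windows found in no other gene it was -0.48. Both are descriptions across genes that share libraries and parents. With 99.6% identity, Rps13-ps1 was at 0.171% in WT HSCs, beside the median of 0.170% for its class, and at 42.2% in Pon2-/- HSCs.

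**Figure D5:**
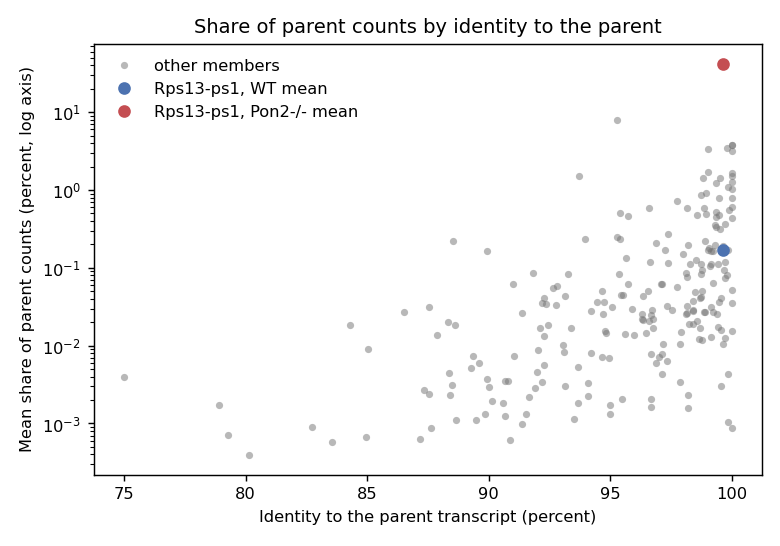
Mean share of parent counts in percent (log axis) against identity to the parent transcript in percent for the aligned pseudogenes, with grey points for the mean of both genotypes. Rps13-ps1 is drawn once for WT (blue, 0.171%), amid the pseudogenes of 99% identity and above, and once for Pon2-/- HSCs (red, 42.2%), above all others.

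By position, 150 of the 230 pseudogenes overlapped no other gene, 71 lay in an intron of another gene and 9 overlapped an exon. The last 9, such as Rps12-ps4 and Nphs1, share positions with another gene, and without strand their reads cannot be told apart from those of that gene. Likewise, reads from an intron of another gene cannot be told apart from those of the 71 pseudogenes placed there. The 230 were spread over 20 chromosomes.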

How the data were processed

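RNA-seq of HSCs from 6 WT and 6 Pon2-/- mice was used, with groups taken from the labels. The authors trimmed reads with Trimmomatic 0.36, checked them with FastQC 0.11.5, mapped them to GRCm38.p5 with STAR 2.5.3a and counted reads per gene of GENCODE M12. The deposited values are whole-number counts per gene, 12967791 to 24228280 per sample, without normalization. STAR counts reads that map to a single place, which affects near-identical copies. Their column was read as unstranded. Names, positions and transcripts came from GENCODE M21 (GRCm38), which matched 49326 of 49585 gene identifiers and all 230 pseudogenes, 205 with the same version. Nothing in the labels says that the samples share an animal, and 1 mouse is 1 sample.

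Counts were compared in R 4.3.3 with edgeR 4.0.16 (TMM, filterByExpr, glmQLFit, glmQLFTest, with a term for genotype) and called past an FDR of 0.05 with an absolute log2 fold change over 1. The standard errors given with edgeR were derived from its test, as the absolute log2 fold change divided by the square root of F. log2 CPM used a prior count of 2, and shares had 0.5 added to the pseudogene count before the log. Exact permutation tests were two-sided over all assignments. Each pseudogene was aligned locally to the transcripts of its parent (Biopython 1.88, match 1, mismatch -2, gap opening -4 and extension -1). Its parent was the gene with the symbol before -ps. The fit was tested on simulated data. Alternatives were DESeq2 1.42.0 with and without Cook's cutoff, limma 3.58.1 voom with quality weights, other filters and size factors, robust estimation, a replicate block, other denominators and offsets of the share, and leaving out each sample.

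The pseudogenes and lists were chosen with earlier results of these data known. Named were Rps13-ps1, called pseudogenes, the 10 with the highest mean CPM, those with at least 10 counts and no overlap in CPM, and their parents, with Pon2.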

Additional observations from a re-analysis of the deposited data

Results flagged for a closer look

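Values were screened for single samples far from the other 5 of their genotype with Dixon's test at its 95% critical value, for the CPM and share of the named pseudogenes, Rps13-ps4 and Rps13-ps5, and the CPM of the parents. Of 72 groups of 6 samples, 5 held such a sample, where chance gives about 1 in 20. Rps13-ps1 in Pon2-/- replicate 2 was at 102 CPM, below the 128 to 143 CPM of the others, and remained above all WT samples. Rps13-ps5 in Pon2-/- replicate 3 was at 2.33 CPM with a share of 0.776%, above the others at 0.781 to 1.11 CPM and 0.252% to 0.362%. Rpl10a in Pon2-/- replicate 5 was at 259 CPM and Rps2 in WT replicate 4 at 632 CPM, both below the others of their genotype.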

How the results depend on the processing

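The difference of Rps13-ps1 kept its direction and its call under all 20 alternatives run, with log2 fold changes of 7.41 to 7.63 and adjusted p from 5.8e-256 (DESeq2) to 0.000355 (limma voom), and leaving out each sample gave 7.41 to 7.63. The log2 difference of its share ran from 7.40 to 7.96, and that of the other 229 pseudogenes from -0.02 to 0.07. edgeR and limma called 1 pseudogene under each setting, while DESeq2 called 3 with and without Cook's cutoff (the cause was not tested). Over all genes, edgeR called 24, with no filter beyond 1 read 8 and with the replicate block 5, and DESeq2 304, without Cook's cutoff 966. With the replicate number as a block, 1 pseudogene was called (Rps13-ps1, log2 fold change 7.53, adjusted p = 0.000157 by edgeR), and within pairs the exact permutation test of its share gave p = 0.0312, the smallest possible. Deviations of samples with the same number correlated by 0.000932 to 0.0430, so that numbers were not taken as pairs.
Log2 differences near 0 of genes that were not called turned sign under some settings. With voom they were 0.0401 for Rps19-ps6, 0.032 for Rps24-ps3, 0.0166 for Rps10 and 0.0044 for Rps19. Leaving out each sample gave -0.0016 to 0.14 for Rpl10-ps3, -0.115 to 0.0267 for Rps19-ps6, -0.114 to 0.0589 for Rps24-ps3, -0.0499 to 0.112 for Rpl31-ps8, -0.0741 to 0.0132 for Rpl10, -0.0217 to 0.0918 for Rpl3, -0.0281 to 0.0974 for Rpl31 and -0.12 to 0.028 for Rps10. At a biological coefficient of variation of 99.2%, genes that were not called are not shown to be unchanged.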
